A study of Mus musculus with 10 samples.

Results

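The comparison described here is the spleen of aged mice that had eaten yogurt against the spleen of aged mice that had not, and it rests on 2 of the 10 arrays of the study. Male mice of ICR, an outbred stock, were 28 months old when tissues were taken. From 8 months of age one group had received AIN-93, a purified rodent diet, with LB81 yogurt added at 1 to 2%, and the other group AIN-93 alone. Each mouse was caged alone under specific-pathogen-free conditions. RNA of 10 yogurt-fed mice was mixed in equal amounts into 1 spleen pool and RNA of 9 control mice into another, and 100 ng of each mixture was amplified and hybridized to 1 Affymetrix Mouse Genome 430 2.0 array. The same was done for jejunum, ileum, distal colon and liver, so there were 5 tissues and 1 array per diet and tissue.

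With 1 array a side there is no replicate check in the spleen, and no test of a spleen difference was possible. In a pool, a small difference shared by all mice and a large one carried by a few mice cannot be told apart. Fewer cells of a type and less RNA per cell cannot be told apart either. Differences are therefore given as sizes, as the log2 value of the yogurt pool minus that of the control pool, called the log2 ratio below.

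The spleen holds 2 compartments. The red pulp filters blood, and its macrophages take up old red cells and recycle their iron. The white pulp is lymphoid tissue in which B cells meet antigen in follicles, form germinal centres with help from T cells, and give rise to plasma cells. In mice, unlike adult humans, the red pulp also keeps making blood cells throughout life, so granulocyte, erythroid and megakaryocyte precursors are normal residents of this organ.

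Of 18194 genes with a probe set assigned to 1 gene symbol, 11883 were measured in the spleen, meaning that the value exceeded the floor on at least 1 of its 2 arrays. The floor was each array's median, 5.49 on the yogurt array and 5.48 on the control array on the deposited log2 scale. A value below it was raised to it, so a ratio against a floored value is a lower bound and is written as "at least". The 2 arrays ranked the genes almost alike (Spearman's rho 0.991 across genes, which are not independent replicates). The spleen label was borne out by its markers: Ms4a1, Cd79b and Cd3e of lymphocytes, Spic of red pulp macrophages, Alas2 of red cell precursors, and Tlx1, the transcription factor on which spleen formation depends, were higher on both spleen arrays than on any of the 8 others. Cd5l, Cd209b, Siglec1 and Cxcl13, macrophage and follicle markers, were not. Albumin (Alb) of liver, Cpa1 of exocrine pancreas and Adipoq of fat lay below the floor on both. Ratios of 3′ to 5′ control probe sets, a measure of RNA integrity, were 1.29 with yogurt against 1.01 in controls for Gapdh on the log2 scale, and 1.09 in yogurt spleen and 1.01 in control spleen for actin. The Gapdh gap between diets was wider in spleen than in any other tissue. Next came liver, at 0.86 with yogurt and 0.98 in controls. For actin the gap was wider in liver, at 1.82 with yogurt and 2.01 in controls. The part of the spleen differences in the results below was not tested.

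The median gene had a log2 ratio of -0.05 (interquartile range -0.17 to 0.07), and 38.5% of measured genes were higher in the yogurt pool against 61.5% lower. After a loess fit on mean level was removed the share higher was 49.9%, and after quantile normalization 51.8%, so a list is read against this shift. Counts of lower members below are to be set beside 61.5%, and counts of higher members beside 38.5%. A difference of 2-fold or more was found for 23 genes higher in the yogurt pool (0.194% of those measured) and 16 lower (0.135%). At 1.5-fold, 75 genes were higher (0.631%) and 130 lower (1.09%); after median-centring these were 95 higher and 92 lower. Of the 23 genes at least 2-fold higher, 10 belonged to the 2 lists of neutrophil genes used here, and none of the 16 lower genes did. Those lists held 7 and 21 of the 11883 measured genes. They were chosen with earlier results of these data known, so the overlap is a description. The plot of all genes shows these neutrophil genes standing above a narrow band of ratios.

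**Figure D1:**
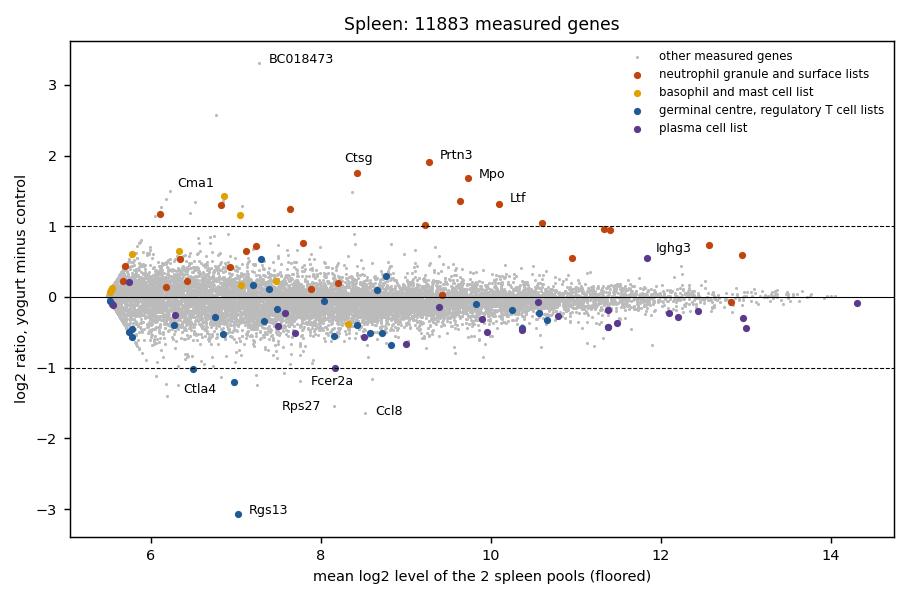
Log2 ratio of the yogurt pool over the control pool (vertical axis) against the mean log2 level of the 2 pools after flooring (horizontal axis) for the 11883 genes measured in spleen. Coloured points are members of the named lists, dashed lines mark 2-fold, and Rgs13 is drawn at its bound of -3.07.

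The genes of neutrophil primary granules had the highest median ratio of the gene lists compared. These granules are the first to form, in promyelocytes, and most of their genes are switched off before the cell matures, so they mark granulocyte production more than circulating neutrophils. Prtn3, encoding proteinase 3, had a log2 value of 10.23 in the yogurt pool against 8.33 in controls, a 3.74-fold difference. Ctsg, encoding the serine protease cathepsin G, had 9.30 with yogurt against 7.55 in controls (3.37-fold). Mpo, encoding myeloperoxidase, which makes hypochlorous acid, had 10.57 in yogurt spleen and 8.89 in control spleen (3.21-fold). All 3 were far above the floor in both pools and differed by more than 3-fold in the same direction. Elane, encoding neutrophil elastase, followed with 7.48 in the yogurt pool against 6.18 in controls (2.46-fold). Ms4a3, a membrane protein of granulocyte and monocyte progenitors, had 8.25 with yogurt against 7.01 in controls (2.37-fold). The remaining measured members were close to equal: Gfi1, a transcriptional repressor needed for neutrophil formation, had a log2 ratio of 0.23, and Srgn, the granule proteoglycan serglycin made by many blood cells, had -0.08. Fcnb, the last of the 8 members on the array, was below the floor in both pools. Thus 5 of 7 measured members were at least 1.5-fold higher, beside 0.631% of all measured genes, and the list median was 1.30 on the log2 scale.

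Promoter sequences are shown for 4 primary granule genes and 2 genes of the later granules, because these genes were higher together and the factors that control them in myeloid precursors are well known: PU.1, the C/EBP family and Myb. The windows are the 250 bases before each gene's start from RefSeq (build GRCm38.p6), read 5′ to 3′ on the gene's strand. Capitals mark matches on either strand to GAGGAAGT for PU.1, TTNNGCAA for C/EBP and AACGG for Myb; no marked matches overlapped. Prtn3 lies at chr10:79879417-79879666 on the plus strand and its neighbour Elane at chr10:79886062-79886311 on the plus strand. Mpo lies at chr11:87793534-87793783 on the plus strand and Ctsg at chr14:56102575-56102824 on the minus strand. Ltf lies at chr9:111019042-111019291 and Ngp at chr9:110419558-110419807, both on the plus strand.
Prtn3: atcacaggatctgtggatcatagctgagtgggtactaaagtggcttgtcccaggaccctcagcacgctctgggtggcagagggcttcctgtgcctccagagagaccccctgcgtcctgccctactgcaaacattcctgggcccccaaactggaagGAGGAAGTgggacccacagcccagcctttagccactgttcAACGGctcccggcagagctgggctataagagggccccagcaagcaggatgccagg
Elane: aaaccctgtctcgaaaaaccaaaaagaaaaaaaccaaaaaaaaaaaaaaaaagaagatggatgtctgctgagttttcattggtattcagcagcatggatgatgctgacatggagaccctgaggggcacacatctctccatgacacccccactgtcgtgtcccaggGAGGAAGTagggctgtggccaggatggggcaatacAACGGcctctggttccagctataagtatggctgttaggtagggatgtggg
Mpo: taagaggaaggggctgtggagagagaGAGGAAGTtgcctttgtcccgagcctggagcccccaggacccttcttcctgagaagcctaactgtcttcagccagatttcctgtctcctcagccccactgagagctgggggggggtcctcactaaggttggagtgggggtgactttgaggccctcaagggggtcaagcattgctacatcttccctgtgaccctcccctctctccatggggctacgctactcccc
Ctsg: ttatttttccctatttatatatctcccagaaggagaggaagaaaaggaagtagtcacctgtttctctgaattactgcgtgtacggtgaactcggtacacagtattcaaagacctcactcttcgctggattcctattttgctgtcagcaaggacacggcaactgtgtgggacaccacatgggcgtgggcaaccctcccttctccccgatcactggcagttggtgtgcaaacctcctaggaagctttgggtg
Ltf: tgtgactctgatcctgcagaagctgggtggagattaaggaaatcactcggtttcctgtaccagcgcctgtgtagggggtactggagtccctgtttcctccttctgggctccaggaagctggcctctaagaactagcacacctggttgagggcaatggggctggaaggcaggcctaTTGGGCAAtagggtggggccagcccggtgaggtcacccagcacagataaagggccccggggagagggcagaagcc
Ngp: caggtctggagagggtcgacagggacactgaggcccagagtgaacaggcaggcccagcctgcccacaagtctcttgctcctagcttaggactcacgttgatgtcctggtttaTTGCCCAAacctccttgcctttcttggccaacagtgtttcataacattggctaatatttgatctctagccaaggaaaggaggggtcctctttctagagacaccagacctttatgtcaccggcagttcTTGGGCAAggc

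Prtn3 and Elane each held 1 PU.1 match and 1 Myb match, with the PU.1 match starting 95 bases before the start of Prtn3 and 85 bases before that of Elane. Mpo held 1 PU.1 match, starting 224 bases before its start, and Ctsg held none of the 3. Ltf held 1 C/EBP match and Ngp 2. Among genes not shown, Lcn2, Cd177, Chil3 and Camp had wider ratios than Ngp. Lcn2 held 1 C/EBP match, while Cd177, Chil3, Camp and the primary granule gene Ms4a3 held none of the 3. Of the 24 measured neutrophil genes with a window, 6 held the PU.1 letters, 7 the C/EBP letters and 2 the Myb letters. Among all 32851 promoter windows of this length the shares were 2.44% for PU.1, 9.56% for C/EBP and 14.5% for Myb. These are descriptions of letters in short windows and do not show binding.

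Genes of the later granules, made in myelocytes and band cells, and of the neutrophil surface were also higher in the yogurt pool, by less. All 21 measured members of this list had a log2 ratio above 0, beside 38.5% of all measured genes, with a median of 0.66. At least 1.5-fold higher were 12 members, beside 0.631% of all measured genes. A further 2 members (Stfa2l1 and Stfa3) were below the floor. Lcn2, encoding lipocalin 2, which withholds iron from bacteria by binding their siderophores, had 10.32 in yogurt spleen and 8.97 in control spleen. Ltf, encoding the iron-binding protein lactoferrin, had 10.76 in the yogurt pool against 9.44 in controls. Both were about as far apart as Elane. Chil3, a chitinase-like protein, had 11.13 with yogurt against 10.08 in controls, and Hp, encoding the haemoglobin scavenger haptoglobin, 9.73 in yogurt spleen and 8.72 in control spleen. Camp, encoding the antimicrobial cathelicidin, had 11.81 in the yogurt pool against 10.85 in controls, with Ngp, a cystatin-like granule protein, close behind it at a log2 ratio of 0.95. Cd177, a surface protein of neutrophils, had 6.69 with yogurt against 5.51 in controls, where it was just above the floor; with the floor at the 65th percentile its ratio was 0.14.

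S100a8 and S100a9, the subunits of calprotectin, differed less than the granule proteins: S100a9 had 12.94 in yogurt spleen and 12.20 in control spleen, and S100a8 13.24 in the yogurt pool against 12.65 in controls. The metalloproteinases Mmp8 and Mmp9, neutrophil collagenase and gelatinase, had log2 ratios of 0.72 and 0.66. Some receptors were at the lower end of the list, as was Itgb2l at 0.22. Cxcr2, the chemokine receptor that draws neutrophils from the marrow, had a ratio of 0.43, Csf3r, the receptor for granulocyte colony-stimulating factor, 0.11, and Fpr2, a receptor for formylated peptides, 0.03. The widest neutrophil ratios were thus those of Prtn3, Ctsg and Mpo, and among the narrowest in the later list were those of Csf3r and Fpr2. Outside these lists, Slfn4, a Schlafen family member of myeloid cells, had 9.11 with yogurt against 7.62 in controls.

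With values under the floor raised to it, the median log2 ratio of the later granule and surface list was 0.29 in jejunum (11 members measured), 0.11 in ileum (10), 0.29 in distal colon (10) and 0.27 in liver (17). The primary granule list had medians of 0.11 in jejunum, -0.02 in ileum, -0.08 in distal colon and 0.12 in liver, over the 3 to 6 members above the floor there. Outside the spleen Mpo was above the floor in liver, where its ratio was 0.42, and Chil3 had a ratio of 1.38 in liver. Prtn3 had 9.04 in yogurt liver and 8.83 in control liver, a ratio of 0.20. Liver ratios were 0.10 for Ms4a3, 0.03 for Elane and at least 0.15 for Ctsg. For calprotectin the mean log2 ratios over the other 4 tissues were at least 1.26 for S100a8 and 0.87 for S100a9, since the control pools of jejunum, ileum and distal colon were below the floor for both.

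**Figure D2:**
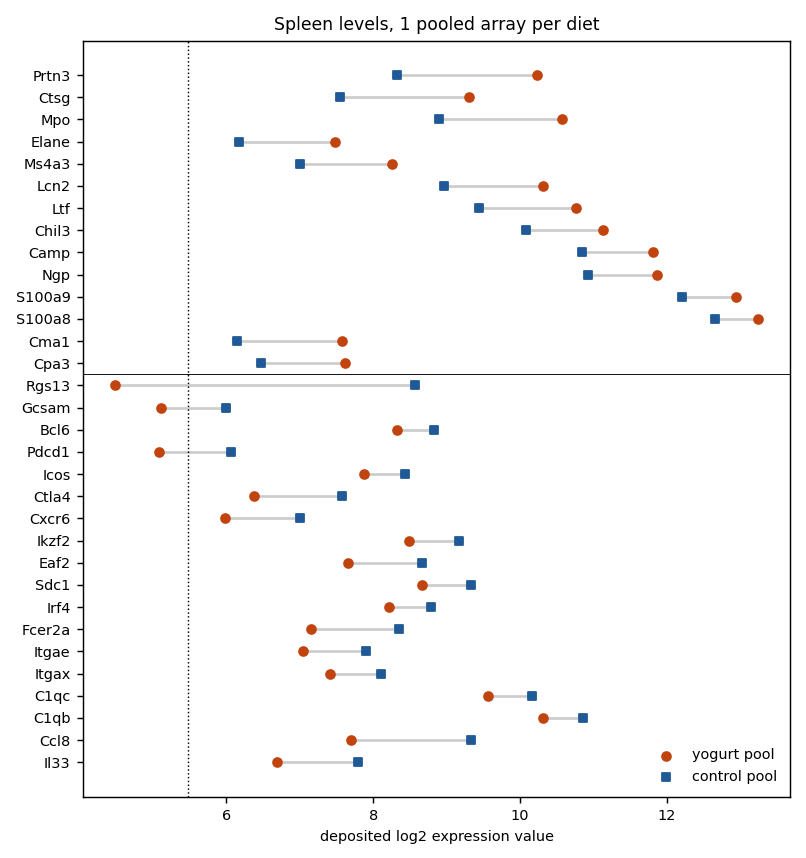
Deposited log2 value (horizontal axis) of selected genes in the yogurt pool (circles) and the control pool (squares), with the mean floor of the 2 arrays as a dotted line. Genes were chosen by the direction of their ratio. Granule, calprotectin and mast cell genes above the solid line were higher in the yogurt pool, by up to 1.90 for Prtn3. The lymphoid, dendritic cell, macrophage and stromal genes below it were lower. List members that went the other way are not drawn.

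Proteases of mast cells were higher as well, though the list as a whole was thinly measured. Cma1, encoding mast cell chymase, had 7.58 in yogurt spleen and 6.14 in control spleen, a 2.70-fold difference. Cpa3, encoding the carboxypeptidase of mast cells and basophils, had 7.62 in the yogurt pool against 6.47 in controls (2.22-fold). Hdc, the enzyme that makes histamine, had a log2 ratio of 0.65, and Fcer1a, the binding chain of the high-affinity IgE receptor, one of at least 0.60 because the control pool was at the floor. Other defining genes were not seen: Ms4a2, Tpsab1, Cd200r3, Mcpt1 and Mcpt2 lay below the floor in both pools, and Mcpt8, Mcpt4 and Tpsb2 barely reached it in one. In distal colon Cma1 differed the other way, with a ratio of -0.99. Of 10 measured members 9 were higher and 4 at least 1.5-fold higher, beside 38.5% and 0.631% of all measured genes. However, 4 of the 10 had 1 pool at the floor.

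Eosinophil genes gave a mixed picture. Il5ra, the interleukin 5 receptor, was at least 2.21-fold higher in the yogurt pool, where its value was 6.62, than in the control pool, where it was under the floor; with the floor at the 65th percentile its log2 ratio was 0.06. Granule proteins differed less, with log2 ratios of 0.36 for Ear3, 0.32 for Epx (eosinophil peroxidase) and 0.28 for Prg2 (major basic protein). The chemokine receptor Ccr3 was lower, at -0.38.

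Megakaryocyte and platelet genes were higher in the yogurt pool by a small and even amount. Of 23 measured members 21 had a positive log2 ratio, beside 38.5% of all measured genes, with a median of 0.27, and none reached 1.5-fold. Vwf, encoding von Willebrand factor, had 9.04 with yogurt against 8.60 in controls. Itgb3 and Itga2b, the 2 chains of the fibrinogen receptor, had ratios of 0.40 and 0.37. The platelet chemokines Ppbp and Pf4 had ratios of 0.33 and 0.29. The exceptions were Tbxas1, thromboxane synthase, at -0.33 and P2ry12, the ADP receptor, at -0.18. In the other 4 tissues the median of this list lay between -0.00094 and 0.06.

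Erythroid genes showed the same direction at a smaller size. Of 37 measured members 32 were higher, beside 38.5% of all measured genes, with a median log2 ratio of 0.15. Epor, the erythropoietin receptor, had 8.64 in yogurt spleen and 8.21 in control spleen, and Klf1, the transcription factor that drives the red cell programme, 11.30 in the yogurt pool against 10.97 in controls. Ermap, a red cell membrane protein, had a ratio of 0.35. Among the 5 lower members were Alas2, which starts haem synthesis in red cells, at -0.13, and the globin gene Hbb-b2 at -0.71 (-0.21 with the mean over probe sets), whose ratio in liver was -0.91. Proliferation genes differed little, with a median of 0.06, and 30 of 40 measured members were higher, beside 38.5% of all measured genes. Foxm1, a factor that drives entry into mitosis, had 0.46 and Ccna2, encoding cyclin A2, 0.19. Stem and progenitor genes were divided, 11 of 18 higher with a median of 0.09, Myb having 0.46 and Procr, a surface marker of stem cells, -0.39.

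**Figure D3:**
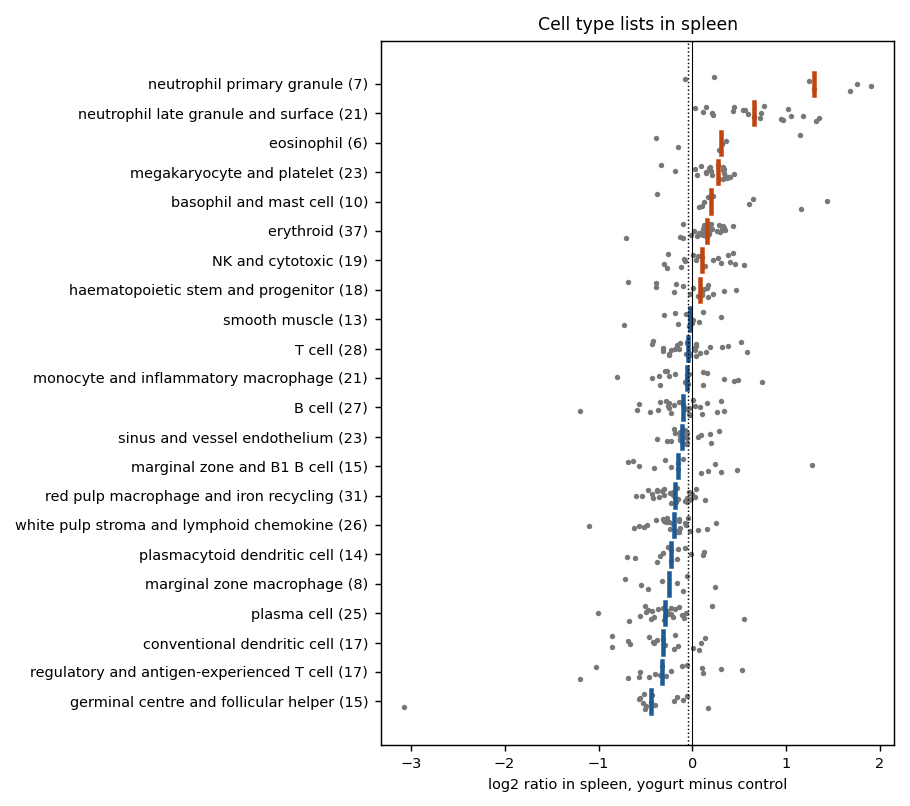
Log2 ratio in spleen of every measured member of each cell type list (points, number of members in brackets), with the list median as a thick bar, red above 0 and blue below. The solid line is 0 and the dotted line the median of all measured genes, -0.05; the primary granule list had the highest median, 1.30, and the germinal centre list the lowest, -0.45.

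On the other side, genes of germinal centres and of the T cells that serve them were lower in the yogurt pool. Of 15 measured members 14 had a negative log2 ratio, beside 61.5% of all measured genes. The median, -0.45, was the lowest of the cell type lists. Rgs13, a regulator of G protein signalling found in germinal centre B cells and also in mast cells, had 4.49 in the yogurt pool, which is below the floor, and 8.56 in the control pool. It was at least 8.40-fold lower in the yogurt pool, the largest lower difference of any measured gene. The other members differed far less. Icos, the costimulatory receptor of follicular helper T cells, had 7.87 with yogurt against 8.43 in controls. Fas, the death receptor carried by germinal centre B cells, had a ratio of -0.53, and Bcl6, the repressor that both cell types need, one of -0.51. Pdcd1, encoding PD-1, and Gcsam, a germinal centre signalling protein, were at the floor in the yogurt pool, with log2 ratios of -0.57 and -0.50 that are bounds. S1pr2, a receptor that holds B cells in the germinal centre, was the member that was higher, at 0.16. A single member reached 1.5-fold, so the list differed by many small ratios and 1 large one.

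B cell genes as a whole did not stand out from all genes. Of 27 measured members 19 were lower, with a median of -0.10, and the antigen receptor chain Cd79b and the surface protein Ms4a1 (CD20) had ratios of -0.04 and 0.10. The exception in size was Fcer2a, encoding CD23, the low-affinity IgE receptor of follicular B cells, which had 7.16 in yogurt spleen and 8.35 in control spleen, 2.29-fold lower. Cd72, an inhibitory coreceptor, Bach2, a repressor that delays plasma cell formation, and Ebf1, a B cell identity factor, had ratios of -0.59, -0.57 and -0.45. In the marginal zone and B1 list 9 of 15 were lower with a median of -0.15. Its widest member, Zbtb32, a repressor of plasma cell recall responses, went the other way and was at least 2.42-fold higher in the yogurt pool (a log2 ratio of 0.34 with the mean over probe sets).

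Plasma cell genes were lower more evenly, 23 of 25 measured members beside 61.5% of all measured genes, with a median of -0.29. Eaf2, an elongation factor partner raised in plasma cells, had 7.66 in the yogurt pool against 8.67 in controls. Sdc1, encoding syndecan 1 (CD138), the usual surface marker of plasma cells, had 8.66 with yogurt against 9.33 in controls, and Irf4, a factor required for these cells, 8.22 in yogurt spleen and 8.78 in control spleen. With the mean over probe sets Sdc1 was at -0.25 and Irf4 at -0.22. Prdm1, the master regulator Blimp-1, had a ratio of -0.41 and Jchain, which joins polymeric antibodies, -0.30. One antibody gene went the other way: Ighg3, the heavy chain of IgG3, had 12.11 in the yogurt pool against 11.56 in controls, with 0.28 as the mean over its probe sets, and its ratio was positive in the other 4 tissues too, from 0.20 in distal colon to 0.54 in liver. Igha, the IgA heavy chain, was lower, at -0.44. Light chain variable genes were lower in most cases, with Igkv6-14 at -0.95, Igkv14-111 at -0.84, Igkv15-103 at -0.83, Igkv9-120 at -0.79 and Iglv1 at -0.69, while Igkv6-20 was at 0.48. Of the 14 measured immunoglobulin genes, gathered by name after their values were seen, 11 were lower.

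For Ighm, the IgM heavy chain, the result depended on the probe set. The brightest of its 9 probe sets, at 14.26 with yogurt against 14.35 in controls, gave a log2 ratio of -0.09. All of the other 8 were lower by more, from -0.18 to -1.54. One of them had 11.12 in yogurt spleen and 12.45 in control spleen, a ratio of -1.33.

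Among T cells the broad markers were level and those of regulatory and antigen-experienced cells lower. The T cell list had 12 members higher and 16 lower with a median of -0.05, the same as all genes, and Cd3d, Cd3e and Cd8a had ratios of 0.04, -0.03 and 0.08. Its widest members went both ways, with Dapl1 at 0.52, Skap1 at -0.43 and Tespa1 at -0.42. Zap70 had 0.58, with its 3 probe sets ranging from -0.31 to 0.58. In the regulatory and antigen-experienced list 13 of 17 were lower, beside 61.5% of all measured genes, with a median of -0.33. Ctla4, the inhibitory receptor of regulatory T cells, had 6.38 in the yogurt pool against 7.58 in controls, 2.30-fold lower. Cxcr6, a chemokine receptor of tissue-resident memory cells, had 5.98 in the yogurt pool and a log2 ratio of -1.02. Ikzf2, encoding Helios, had 8.48 with yogurt against 9.16 in controls. The direction was not shared by Eomes, a factor of cytotoxic memory cells, which had a ratio of 0.53. Foxp3 and Il2ra, which define regulatory T cells, were below the floor in both pools, so their direction was not measured. NK and cytotoxic genes leaned higher, 13 of 19 with a median of 0.11: Klrg1, a receptor of effector cells, had 0.55 and Gzma (granzyme A) 0.45, whereas Gzmb (granzyme B) had -0.30.

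Dendritic cell genes were lower. In the conventional dendritic cell list 13 of 17 measured members were lower, beside 61.5% of all measured genes, with a median of -0.31. At least 1.5-fold lower were 4 members, beside 1.09% of all measured genes. Itgae, encoding CD103, carried by cross-presenting dendritic cells and by resident T cells, had 7.05 in yogurt spleen and 7.91 in control spleen. Itgax, encoding CD11c, had 7.41 in the yogurt pool against 8.10 in controls, and Cadm1, an adhesion molecule of cross-presenting cells, 9.60 with yogurt against 10.27 in controls. Fscn1, the actin bundler of mature dendritic cells, had -0.86 with its brightest probe set and up to 0.17 with another. Xcr1, the chemokine receptor of cross-presenting cells, did not differ by this measure, at 0.00. Ly75, encoding the uptake receptor DEC-205, was at least 2.17-fold lower. Plasmacytoid dendritic cell genes had a median of -0.23, with 12 of 14 lower, among them the gut-homing receptor Ccr9 at -0.61 and Siglech at -0.38. Of the 11 MHC class II presentation genes 10 were lower with a median of -0.21, including the class II activator Ciita at -0.39 and H2-Oa, a modulator of peptide loading, at -0.43.

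Macrophage genes were lower by small amounts, with the complement genes in front. Of 31 measured genes of red pulp macrophages and iron recycling 28 were lower, with a median of -0.19, and 23 lay below the median ratio of all genes. The 3 chains of the complement starter C1q were all lower: C1qc had 9.56 in yogurt spleen and 10.16 in control spleen, C1qb 10.31 in the yogurt pool against 10.85 in controls, and C1qa 10.84 with yogurt against 11.20 in controls. Of the iron recycling genes, the iron exporter Slc40a1 had a log2 ratio of -0.15 and Hmox1, haem oxygenase 1, one of -0.07. Spic, the factor that defines red pulp macrophages, had -0.23. In the marginal zone macrophage list 7 of 8 were lower, with a median of -0.25: the fungal glucan receptor Clec7a had -0.72, the lectins Cd209d and Cd209b had -0.55 and -0.48, and the scavenger receptor Marco had -0.10. Monocyte genes were divided, 14 of 21 lower with a median of -0.06. Within that list F13a1, encoding coagulation factor XIII, had 9.20 in yogurt spleen and 8.45 in control spleen, while the chemokine Ccl3 had a log2 ratio of -0.80.

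Of 26 stromal genes that feed and place lymphocytes 23 were lower, and their median was -0.19. Il33, an alarmin cytokine held in the nuclei of stromal cells, had 6.69 in the yogurt pool against 7.79 in controls, 2.14-fold lower. Tnfsf13b (BAFF), the B cell survival factor, and Il7, the T cell survival factor, had ratios of -0.62 and -0.52; for Tnfsf13b the mean over its probe sets was 0.0071. Cxcl13, the chemokine that draws B cells into follicles, had -0.16. Of 29 extracellular matrix genes 23 were lower (median -0.16), beside 61.5% of all measured genes, with 19 below the median ratio of all genes. Among them were fibronectin (Fn1) at -0.39 (-0.09 with the mean over probe sets) and periostin (Postn) at -0.37. Of 23 endothelial genes 18 were lower, with a median of -0.11, and 18 were below the median ratio of all genes. Beyond these lists, Spon1, a secreted matrix protein, had 6.63 with yogurt against 7.88 in controls, and Lepr, the leptin receptor, 7.45 in yogurt spleen and 8.35 in control spleen.

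Of 26 cytokine and receptor genes 22 were lower, and their median was -0.17. Ccl8, a chemokine for monocytes and T cells made by macrophages, had 7.69 in the yogurt pool against 9.34 in controls, a 3.12-fold difference. Its ratio had no common direction in the other tissues, with 0.52 in jejunum, 0.31 in distal colon, -0.27 in ileum and -0.34 in liver. Nfkbiz and Socs3, both induced by cytokine signalling, had -0.55 and -0.44, and Il1b, encoding interleukin 1 beta, had -0.42. Saa3, an acute phase protein of macrophages and epithelia, went the other way, with 7.72 with yogurt against 6.42 in controls, and was also higher in jejunum (1.10), ileum (0.37), liver (1.13) and distal colon (at least 2.95, with the control pool below the floor). Interferon-stimulated genes stayed near the overall median, 24 of 35 lower with a median of -0.07. So did the genes of microbial sensors, with 14 of 26 lower and a median of -0.08.

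Several programmes that follow handling, time of day or nutrition were also compared. Immediate early genes, which respond to stimulation within minutes, were lower for 20 of 26 members (median -0.15), beside 61.5% of all measured genes. Of the 26, 18 were below the median ratio of all genes. Egr2 led, with 6.25 in yogurt spleen and 7.22 in control spleen, followed by Egr1 at -0.54. For clock genes of both phases most ratios were negative: all 5 measured genes of the activator phase were lower (Arntl -0.23, Cry1 -0.21), and so were 12 of 13 of the repressor and output phase (Dbp -0.41, Nr1d2 -0.35). Against the median ratio of all genes, 9 of those 13 were below and 4 above. Their median was -0.09 in spleen and lower elsewhere: -0.20 in jejunum, -0.14 in ileum, -0.31 in distal colon and -0.36 in liver. For the activator phase the median was -0.21 in spleen, 0.12 in jejunum, -0.07 in ileum, 0.23 in distal colon and 0.05 in liver. With the mean over probe sets Arntl turned to 0.019 and Nr1d2 was at -0.09. The labels do not give the time of day at which each mouse was killed. Cirbp, an RNA-binding protein induced by mild cold, had 8.02 in the yogurt pool against 9.18 in controls, 2.23-fold lower, and was lower in the other 4 tissues, from -0.43 in jejunum to -0.72 in distal colon. Heat shock genes had a median of 0.06. Among 20 cholesterol synthesis genes 18 were lower, beside 61.5% of all measured genes, the median being -0.17. Insig1 was at -0.52 and Msmo1 at -0.51. Metallothionein and zinc genes were lower in 7 of 7, with a median of -0.27. Respiratory chain genes had a median of -0.03 and fatty acid metabolism genes one of -0.04.

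Some of the widest differences belonged to genes outside these groups. BC018473, a transcript with no assigned function, had 8.92 with yogurt against 5.61 in controls, 9.89-fold higher and the highest ratio of any measured gene. In the other 4 tissues the control pool was below the floor, and the log2 ratios were at least 1.22 in jejunum, 1.55 in ileum, 1.40 in distal colon and 0.79 in liver; the mean over its spleen probe sets was 1.02. AF067061, also without an assigned function, was at least 5.97-fold higher, with 8.05 in the yogurt pool and a control value below the floor. Hepacam2, an adhesion protein, had 7.53 in yogurt spleen and 6.17 in control spleen. Among the lower genes, Rps27, a small-subunit ribosomal protein, had 7.39 in the yogurt pool against 8.93 in controls, 2.91-fold lower, although the 21 ribosomal protein genes had a median of 0.02 and 15 of them were higher.

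Genes of neighbouring organs were looked at because the spleen lies against the pancreas, stomach and fat. Of 24 exocrine pancreas genes on the array 9 were above the floor. The linear levels of all 24, those below the floor included, summed to 1278 with yogurt against 1286 in controls. The major enzymes Cpa1, Cpb1, Clps and Cel were below the floor in both. In that list 7 of the 9 were higher. The 20 stomach and gut genes on the array summed to 1323 in yogurt spleen and 1291 in control spleen. Of the 9 measured ones 7 were higher. The 3 measured genes of pancreatic islets were all higher, 2 of them with the control pool at the floor. Over all 11 islet genes on the array the sum was 357 in the yogurt pool and 270 in controls. Of these 11, 8 were below the floor in both pools. The part of these organs in the results was not tested. The 14 adipocyte genes on the array, 8 of them measured, summed to 5492 in the yogurt pool against 5590 in controls. The 23 later granule genes on the array, for comparison, summed to 35879 with yogurt against 21255 in controls.

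**Figure D4:**
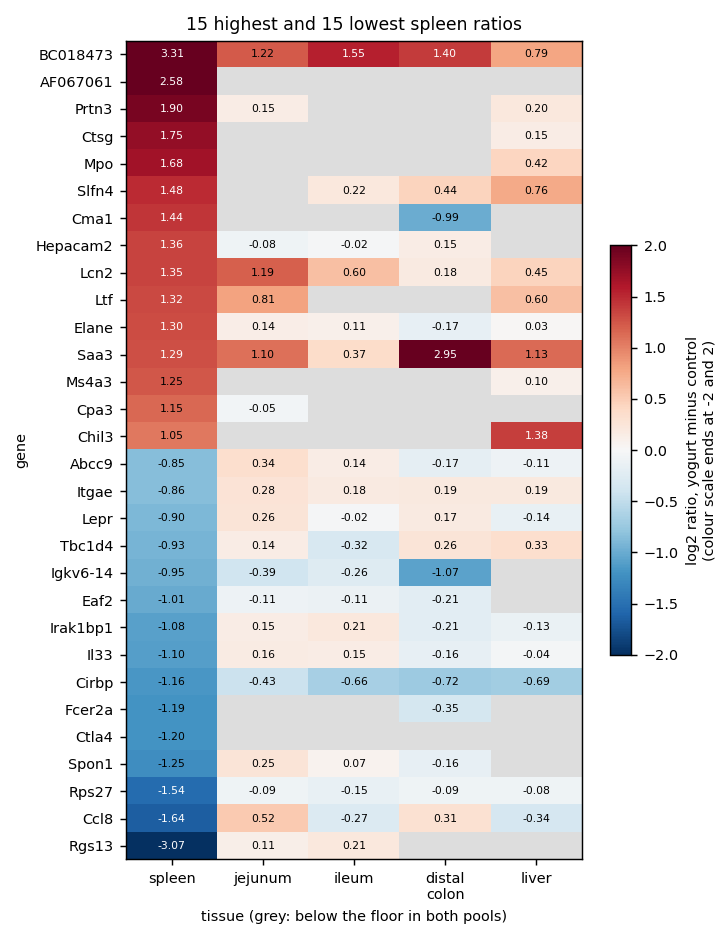
Log2 ratio of the yogurt pool over the control pool in each of the 5 tissues (columns) for the 15 highest and 15 lowest spleen ratios among bright genes (rows, ordered by the spleen ratio). Red is higher in the yogurt pool, and grey marks tissues where both pools were below the floor; a ratio with 1 pool below the floor is a bound. BC018473 and Saa3 were higher in all 5 tissues and Cirbp lower in all 5.

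Whether a spleen ratio differed from the diet ratio of the same gene elsewhere could be tested, with the other 4 tissues as the measure of spread. The test concerns tissues of the same pooled mice, and says nothing of the spread between mice. A limma model on 11025 genes called 6 genes with a higher ratio in spleen (0.0544%) and 13 with a lower one (0.118%) at an adjusted p under 0.05. Elane was the single neutrophil gene called, with a spleen ratio 1.27 ± 0.16 (SE) above the mean of the other tissues, whose values lay near the floor (limma adjusted p = 0.0213). In all, 3 primary granule genes and 9 later granule and surface genes could be fitted; Prtn3, Ctsg, Mpo, Ltf, Ngp and Camp were below the floor in too many other tissues. Hp came nearest among the rest, with a difference of 0.74 ± 0.14 (SE, limma adjusted p = 0.0793). For S100a8 the fitted difference was -0.67 ± 0.24, which did not pass (SE, limma adjusted p = 0.274) and rests on bounds in 3 of the other tissues. At an unadjusted p under 0.05 the model had 471 genes higher and 1012 lower. Rps27 had the lowest p, with a difference of -1.44 ± 0.10 (SE, limma adjusted p = 0.00116). Itgae differed by -1.07 ± 0.12, Sdc1 by -0.67 ± 0.08 and Il33 by -1.13 ± 0.16 (SE, limma adjusted p = 0.0175, 0.0175 and 0.0391). In these 3 genes the spleen value was lower in the yogurt pool while the mean of the other tissues was at 0.21, -0.0023 and 0.03. Elane was called under 6 of 10 other settings, not with the floor at the 35th percentile or with none (adjusted p = 0.0565 and 0.0627), Itgae under 8 of 11, and Sdc1 and Il33 under 7 of 11 each. For Sdc1 the mean over probe sets gave -0.20 (limma adjusted p = 0.349). Without jejunum 2 genes were called higher and 1 lower, without ileum 4 and 1, and without liver 11 and 25. With no condition on the other tissues, 45 genes were called higher and 65 lower.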

How the data were processed

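Expression was measured in 5 tissues of 2 diet groups, with 1 array of pooled RNA per diet and tissue; groups and columns were taken from the sample titles. The values are log2 expression values deposited by the authors for 45101 probe sets. Per the submitters' processing notes, MAS5 and affy were used; the role of each, the scaling and the genome build are not given in the sources used here. Intensities of single probes were not analysed here, and the number of arrays limits the precision.

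Probe sets were named through the platform's annotation: 34958 had 1 gene symbol (34754 matched by gene number), 932 had several and 9211 had none here. The 64 control probe sets were left out. A gene was represented by its probe set with the highest mean over all 10 arrays. Values under the 50th percentile of an array were raised to it, and genes under it on both spleen arrays were left out. The log2 ratio is yogurt minus control. No test was made within the spleen.

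The spleen's diet ratio was compared with the mean of the other 4 tissues by limma (version 3.58.1, in R 4.3.3), with terms for tissue, diet and diet in spleen, a mean-variance trend, 3 residual degrees of freedom and Benjamini-Hochberg adjustment over all genes fitted. Genes had to exceed the floor on a spleen array and in at least 3 of the other 4 tissues. A tissue with both pools below the floor entered as the difference between the floors of its arrays. Both computations were tested on simulated data. Tables were handled with pandas 2.3.3.

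Genes that could be named in full were the 15 at either end of the spleen ratios, taken from genes that exceeded the 75th percentile of the brighter spleen array. Their probe sets had to share 1 sign. Each list added its 4 members with the widest ratio, and each cell type list also its 2 brightest. Not all of these genes were named in the text. Genes at least 2-fold apart, those called by limma, and members of the clock, erythroid, neutrophil, pancreas and immunoglobulin lists may also be named. Other genes named are defining genes of a list or genes chosen after their values were seen. The comparison, the 52 gene lists and the tests were chosen with earlier results of these data known. A list is called higher or lower where at least 75% of 5 or more measured members lie on 1 side of 0. Because 61.5% of all measured genes were lower, this mark is nearer for lower lists than for higher ones. MHC class I was called lower although 7 of its 13 members were above the median ratio of all genes. The ribosomal protein list, with 20 of 21 above that median, was called neither. Alternatives were another floor, no floor, a pseudocount of 32, median-centring, quantile and loess normalization, other choices of probe set and, for the model, leaving out a tissue.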

Additional observations from a re-analysis of the deposited data

Results flagged for a closer look

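In 17 genes that were at least 1.5-fold apart in spleen, the diet ratio in spleen differed from the mean of the other 4 tissues in the limma model (adjusted p under 0.05). Differences below are spleen minus the other tissues on the log2 scale. The measure of spread is between tissues of the same pools, and a gene chosen for its wide spleen ratio enters this test with that ratio.

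Higher in spleen were BC018473 (2.07), Tnfrsf19 (1.53), Hepacam2 (1.34) and Elane (1.27). For BC018473 the control pools of the other 4 tissues were below the floor, so the ratios subtracted are bounds: with no floor the difference was 1.08 (limma adjusted p = 0.192) and under a 35th percentile floor 1.31 (adjusted p = 0.112), and neither passed. Tnfrsf19, a receptor of the tumour necrosis factor family, had 6.97 in the yogurt pool and lay below the floor in the control pool; the mean over its probe sets was 0.14. Hepacam2 had ratios of 1.36 in spleen and between -0.08 and 0.15 in the gut.

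Lower in spleen were Rps27 (-1.44), Spon1 (-1.29), Il33 (-1.13), Itgae (-1.07), Il13ra1 (-0.99), Fam135a (-0.92), Dsc2 (-0.92), Igkv15-103 (-0.92), Klk1 (-0.84), Igkv9-120 (-0.78), Sdc1 (-0.67), Ddt (-0.64) and Dsg2 (-0.63). Among them are the desmosomal cadherins Dsc2 and Dsg2 and the interleukin 13 receptor chain Il13ra1, whose 4 probe sets ranged from -0.85 to -0.06. For Sdc1 the difference was -0.20 with the mean over probe sets (limma adjusted p = 0.349). Rps27 and Hepacam2 were called under 11 of 11 other settings, Tnfrsf19 under 9 of 9 and Itgae under 8 of 11. Fam135a and Dsg2 were called under 7 of 10, and Ddt, Igkv15-103, Il33 and Sdc1 under 7 of 11. Elane and BC018473 were called under 6 of 10 and Il13ra1 under 6 of 11. Called least often of these genes were Klk1 (4 of 11), Dsc2 (4 of 10), Igkv9-120 (5 of 11) and Spon1 (5 of 10). The highest limma adjusted p over these settings was 0.525 for Il13ra1, 0.421 for Igkv9-120, 0.323 for Dsc2 and 0.205 for Klk1.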

How the results depend on the processing

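Within the spleen no paired analysis was possible because there was 1 array per diet and the labels carry no replicate numbers; the tissue model itself sets the diets against each other within each tissue. Over the settings tried, 46 values of the 6 gene counts stayed within 1.5 times the reported count and 20 did not. The 23 genes at least 2-fold higher became 14 under a floor set at the 65th percentile. The 16 at least 2-fold lower became 10 with that floor and 7 with the pseudocount. At 1.5-fold, the 75 higher genes became 41 with that floor and 46 with the pseudocount, and the 130 lower genes became 79 with that floor, 65 with the pseudocount and 78 with the mean over probe sets. Median-centring, quantile and loess normalization brought the share of genes higher close to equal (51.8% for quantile and 49.9% for loess), with 95, 93 and 88 genes at least 1.5-fold higher and 92, 97 and 106 lower. With genes above the floor on both arrays, a setting chosen after seeing the data, the counts were 18 and 13 at 2-fold and 66 and 116 at 1.5-fold.

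The tissue model's 6 higher and 13 lower genes became 12 higher under a 35th percentile floor; 2 higher and 2 lower with the mean over probe sets; 45 higher and 65 lower with no condition on other tissues; 2 higher and 1 lower without jejunum; 1 lower without ileum; 11 higher and 25 lower without liver; and 3 higher and 2 lower without the trend. The cause was not tested.

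Of 28 lists called higher or lower, 6 of 8 higher and 19 of 20 lower kept their sign under every setting. Medians that reversed were MHC class I (0.0026 after median-centring), exocrine pancreas (-0.35 under the 65th percentile floor) and stomach and gut epithelium (-0.22 with that floor). Klk1 became 0.19 with the probe set of highest spleen mean and Tnfsf13b 0.0071 with the mean over probe sets. Elane ranged from 0.92 to 1.35 and Rgs13 from -4.07 to -2.04. With the mean over probe sets Lepr was at -0.48, Fscn1 at -0.19 and Nfkbiz at -0.36; with the floor at the 65th percentile Hdc was at 0.09, Ly75 at -0.09, Ccl3 at -0.28, Cd209d at -0.20 and Cxcr6 at -0.47; without probe sets shared between transcripts Ccr9 was at -0.14, Iglv1 at -0.21 and Socs3 at -0.19.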

Other observations

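By their median range, probe sets of 1 gene lay farther apart in spleen than in any other tissue, a difference that was not tested. Among 4687 genes with 2 or more probe sets above the floor on both spleen arrays, the median range of their log2 ratios was 0.19. It was 0.14 in jejunum, 0.16 in ileum, 0.13 in distal colon and 0.14 in liver. A range of at least 1 was found for 14 genes in spleen (0.299%), against 8 in jejunum, 9 in ileum, 12 in distal colon and 2 in liver. Cct4, a subunit of the cytosolic chaperonin, had the widest: 1 of its 4 probe sets had 7.73 in yogurt spleen and 6.19 in control spleen, and the 3 brighter ones had ratios between -0.13 and 0.04. For Ldhb, the B chain of lactate dehydrogenase, the brightest of 4 probe sets had a ratio of -0.03 and another -1.12. For Xaf1, an interferon-stimulated gene, 2 probe sets gave -1.14 and -0.03. The cause was not tested.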
